A study of Mus musculus with 7 samples.

Results

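Telomerase, the shelterin complex and a pair of telomere helicases are the subject here, as 10 genes found by symbol among the 46603 Ensembl genes counted in each library: the telomerase genes Tert and Dkc1, the shelterin genes Terf1, Terf2, Tinf2, Acd, Pot1a and Pot1b, and the helicase genes Rtel1 and Pif1. All 10 symbols matched a single identifier of the GENCODE M21 annotation, and all 10 passed the filter on low counts. The libraries come from tumors grown in Balb/c nude mice, which lack a thymus, after injection of mouse embryonic fibroblasts (MEFs). Nuclear myosin 1 (NM1), an isoform of the product of Myo1c, had been deleted with CRISPR/Cas9 in the injected cells of both groups. In the KO group the cells were left so, and in the KO+NM1 group NM1 carrying HA and V5 tags had been put back by a lentivirus, with single clones selected by neomycin and tested by Western blot. The mice were females aged 16 weeks, 5 in each group, injected under the skin of the right flank according to the sample descriptions and the study's methods, while its results name the mammary pad. Tumors were taken at the end of 30 days according to the sample descriptions, and the study's text gives a slightly earlier day. The RNA-seq libraries are 3 pieces of KO tumor and 4 pieces of KO+NM1 tumor, each homogenized on its own. The sample descriptions give a single tumor per condition cut into 4 pieces, so the spread between pieces may hold no difference between mice, and a p-value here measures only the spread between pieces. A piece also holds host cells, and the counts, being per gene, do not separate host from injected cells.

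Chromosome ends in the mouse are arrays of the repeat TTAGGG. Telomerase extends them with the reverse transcriptase Tert, which copies a template in the RNA Terc, while dyskerin, the product of Dkc1, binds and stabilizes that RNA and also acts on other small RNAs in the nucleolus. Shelterin coats the repeats and hides the ends from DNA damage signaling. Terf1 and Terf2 bind the double-stranded repeat, Tinf2 bridges them to Acd (also called TPP1), and Acd carries the single-strand binding proteins Pot1a and Pot1b, which the mouse has as separate genes where most mammals have one. Rtel1 unwinds telomere loops and G-quadruplexes and also works at replication forks, and Pif1 is a helicase that resolves G-quadruplexes and, as known from yeast, displaces telomerase from ends.

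The template that Tert copies is shown first because it is the part of Terc that sets the repeat. The letters CTAACC, which complement the repeat, lie at bases 29 to 34 of the 423-base Terc transcript of GENCODE M21. Capitals mark this match, the only one of these 6 letters in the transcript. Letters beside it also complement the repeat array, so the capitals do not give the limits of the template.
Terc: aggcctcggcacCTAACCctgattttcatt

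RefSeq promoter windows of GRCm38.p6, 250 bases before to 50 after the start of transcription, were at hand for 8 of the 10 genes, not for Terf1 and Pif1. Those of Dkc1 and Rtel1, which were called between the tumors, and of Tert are shown, each on the plus strand. Capitals mark matches, on either strand, to the GC box GGGCGG, the E-box CACGTG, the CCAAT box CCAAT, the E2F motifs TTTGGCGC and TTTCCCGC and the telomere repeat TTAGGG, and no matches overlapped in these 3 windows.
Tert at chr13:73626661-73626960: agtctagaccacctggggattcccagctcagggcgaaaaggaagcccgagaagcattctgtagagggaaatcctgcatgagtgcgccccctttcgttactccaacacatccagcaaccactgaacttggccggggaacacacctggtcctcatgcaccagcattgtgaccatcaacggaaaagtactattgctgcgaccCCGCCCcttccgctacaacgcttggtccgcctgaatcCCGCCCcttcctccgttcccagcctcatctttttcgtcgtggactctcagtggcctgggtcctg
Dkc1 at chrX:75095604-75095903: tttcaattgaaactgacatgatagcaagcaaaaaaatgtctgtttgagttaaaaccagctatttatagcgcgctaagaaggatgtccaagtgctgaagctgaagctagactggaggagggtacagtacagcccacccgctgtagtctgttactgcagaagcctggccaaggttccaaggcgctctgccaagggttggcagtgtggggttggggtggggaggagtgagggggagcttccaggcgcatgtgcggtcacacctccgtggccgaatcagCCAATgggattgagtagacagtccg
Rtel1 at chr2:181319474-181319773: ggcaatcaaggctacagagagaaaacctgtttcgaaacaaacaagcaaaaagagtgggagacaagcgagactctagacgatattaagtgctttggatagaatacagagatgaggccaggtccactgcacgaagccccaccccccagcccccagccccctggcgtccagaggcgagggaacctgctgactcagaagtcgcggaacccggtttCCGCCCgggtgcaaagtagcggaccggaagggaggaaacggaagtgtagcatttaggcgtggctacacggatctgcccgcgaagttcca
The Tert window holds 2 GC boxes, at bases 200 to 205 and 237 to 242, the Rtel1 window holds 1, and the Dkc1 window holds 1 CCAAT box. Of the 32851 mouse windows of this length, 35.7% hold the GC box and 37.4% the CCAAT box. The E-box, present in 7.15% of windows, and the E2F motifs, present in 0.514% and 1.07%, were found in none of the 8 genes. The telomere repeat, present in 10.6%, was found only in the window of Pot1b. A match of this kind is a description of letters in the window and not a site.

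Each library held between 24088309 and 28326568 counted reads. CPM here are counts relative to library size after TMM scaling, FPKM are CPM per kilobase of the summed exons of a gene, and a count of 0 would allow a level of up to 0.0991 to 0.148 CPM, for counting error only. Myo1c, which checks the labels only in part because the counts do not separate isoforms, was lower in the KO pieces, at 303 ± 12.1 CPM (SD, n = 3) against 408 ± 23.1 CPM (SD, n = 4). The mitochondrial genome gave 1.81% to 2.14% of KO counts and 5.11% to 18.5% of KO+NM1 counts, and its part in the results was not tested beyond leaving these genes out of the library size, which changed no call on the 10 genes.

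Among the libraries, KO+NM1 piece 01 stood apart from the other 3 pieces of its group. The 10 B and plasma cell markers summed to 5339 CPM in it, against 4.32 to 21.5 CPM in KO+NM1 pieces 02 to 04 and 31.5 to 68.8 CPM in the KO pieces. Cd79a, a part of the B cell receptor, was at 1287 CPM in that piece, and no marker of the list was at 0 there. The 10 T cell markers summed to 259 CPM in piece 01, to 197 to 237 CPM in the KO pieces and to 4.68 to 5.55 CPM in KO+NM1 pieces 02 to 04, where Cd3e and Cd3d were between 0 and 0.0494 CPM. Of the 10 genes, 5 (Terf2, Tinf2, Acd, Pot1b and Tert) were higher in this piece than in every KO piece. The test of each of the 10 genes is also given without it, from the fits that left out single pieces. Giving this fit for every gene follows partly from values of the genes themselves, so it is a description and not separate support. Dixon's ratio flagged 0 of the 13 values tested for the KO+NM1 pieces. The tumors differed in other cells too. The 10 white adipocyte markers summed to 122 to 309 CPM in the KO pieces and 4923 to 37049 CPM in the KO+NM1 pieces, and the 10 skeletal muscle markers to 2493 to 21054 CPM and 33.7 to 76.4 CPM. In bulk tissue, fewer cells of a type and less RNA per cell cannot be told apart.

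**Figure D1:**
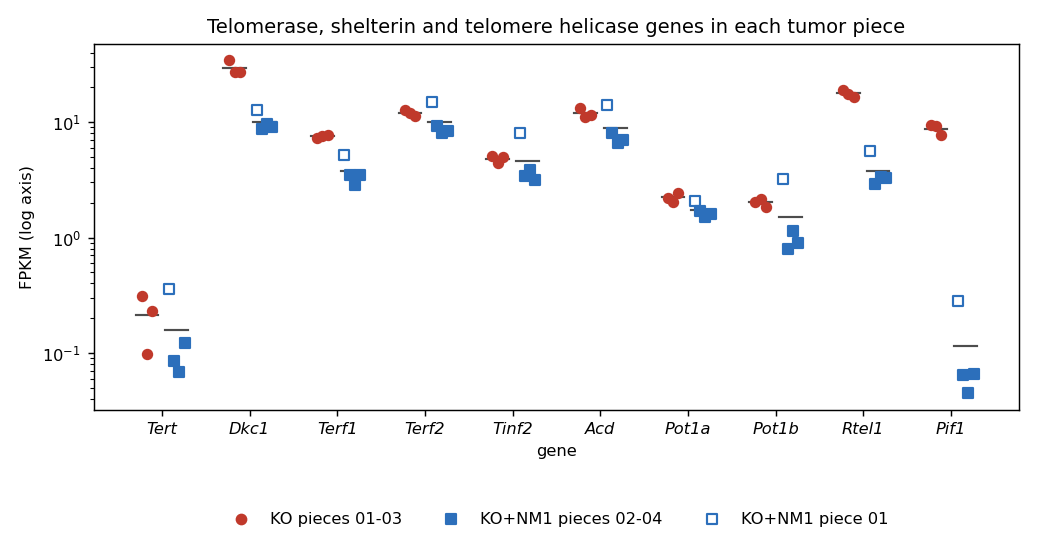
Level of each gene in each tumor piece, in FPKM on a log axis, with 3 KO pieces as circles, KO+NM1 pieces 02 to 04 as filled squares, KO+NM1 piece 01 as an open square and the group mean as a line. The groups are apart for Dkc1, Terf1, Rtel1 and Pif1, and for the other 6 genes the open square lies within or above the KO pieces.

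The KO tumor carried more RNA of 4 of the 10 genes than the KO+NM1 tumor, and none of the 10 was called lower. The 4 were Pif1, Rtel1, Dkc1 and Terf1, with fold changes of 74.7, 4.69, 2.94 and 2.00. The other shelterin genes and Tert did not pass the test, with fold changes between 1.04 and 1.35 and adjusted p from 0.128 to 0.916 by the quasi-likelihood test of edgeR. A gene was called at an adjusted p under 0.05 over the 16887 genes tested and a change of at least 2-fold. By this rule 37.3% of all genes tested were called, 17.1% as higher and 20.3% as lower (shares of all genes tested), so the share of 4 in 10 lies near the background for calls in either direction. By the adjusted p alone, the same 4 genes passed, where 50.2% of all genes did. The median log2 fold change was 0.43 over the 10 genes and -0.00 over all genes tested.

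**Figure D2:**
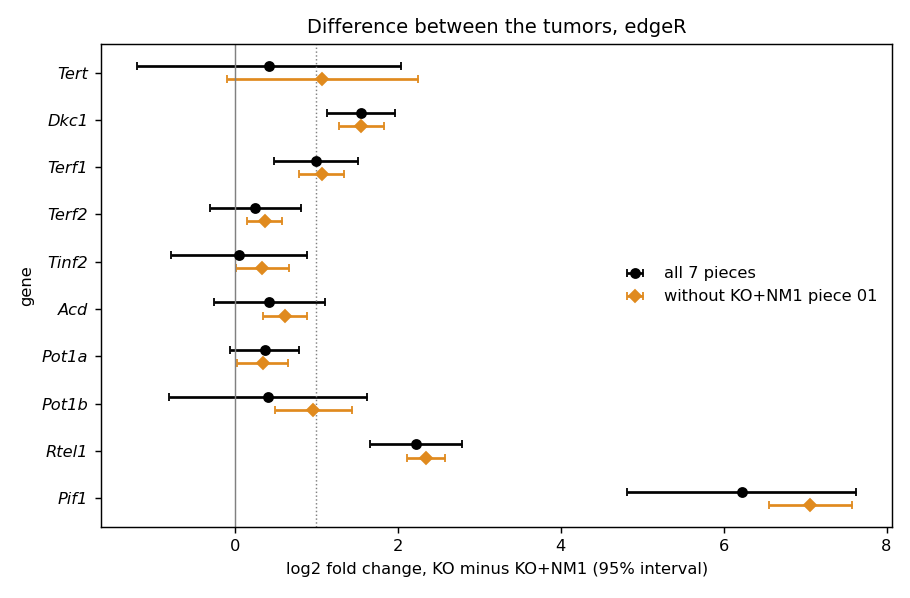
Log2 fold change of each gene, KO minus KO+NM1, with the 95% interval from edgeR, over all 7 pieces (circles) and without KO+NM1 piece 01 (diamonds), with a dotted line at a 2-fold change. Pif1, Rtel1 and Dkc1 lie beyond the dotted line in both fits, Terf1 lies on it, and the intervals of the other 6 genes include 0 over all 7 pieces.

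Tert, the catalytic subunit, was the least abundant of the 10 genes per length in the KO pieces, at 0.214 ± 0.109 FPKM (SD, n = 3). In the KO+NM1 pieces, at 0.158 ± 0.134 FPKM (SD, n = 4), it stood beside Pif1, at 0.115 ± 0.112 FPKM, within the spread. It lies on chromosome 13 of GRCm38 from 73626911 to 73649843 (ENSMUSG00000021611). Its counts were 54, 16 and 40 reads in the KO libraries 01 to 03, against 56, 12, 8 and 17 reads in KO+NM1 libraries 01 to 04. In CPM this was 1.80, 0.556 and 1.32 in the KO pieces and 2.04, 0.488, 0.395 and 0.699 in the KO+NM1 pieces. KO piece 02 lay among KO+NM1 pieces 02 to 04, the highest value was that of KO+NM1 piece 01, and the groups overlapped. The log2 change, KO minus KO+NM1, came to 0.42 (SE of 0.69, 95% interval -1.20 to 2.05, adjusted p = 0.632, edgeR). At this depth a change of Tert anywhere between 0.436-fold and 4.13-fold lay within the interval. Without KO+NM1 piece 01 the log2 fold change was 1.08 (adjusted p = 0.0859, edgeR), and without KO piece 01 it was -0.06 (adjusted p = 0.958, edgeR), so a single piece set its direction.

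Dkc1, on the X chromosome from 75095854 to 75109777 (ENSMUSG00000031403), was the most abundant of the 10 genes per length in the KO pieces, at 29.5 ± 4.2 FPKM (SD, n = 3). In the KO+NM1 tumor, at 10.1 ± 1.79 FPKM (SD, n = 4), it was level with Terf2, at 10.1 ± 3.20 FPKM. The values of Dkc1 were 142, 111 and 112 CPM in the KO libraries 01 to 03, against 52.3, 36.1, 39.6 and 37.8 CPM in KO+NM1 libraries 01 to 04. The groups were apart, with the KO pieces on top and piece 01 the highest of the KO+NM1 pieces. The difference on the log2 scale was 1.55 (SE of 0.18, adjusted p = 0.000851, edgeR) and was 1.56 without KO+NM1 piece 01 (adjusted p = 4.07e-05, edgeR). Mpp1, on the opposite strand, shares 45 exonic bases with Dkc1, or 1.09% of its exons.

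The helicases showed the largest differences among the 10 genes. Pif1 lies on chromosome 9 from 65587160 to 65595967 (ENSMUSG00000041064). It had 1234, 1160 and 1039 reads in the KO libraries 01 to 03, against 34, 7, 4 and 7 reads in KO+NM1 libraries 01 to 04. In CPM this was 41.1, 40.3 and 34.3 against 1.24, 0.285, 0.198 and 0.288. The KO pieces lay close together, KO+NM1 pieces 02 to 04 lay within a few reads of the detection limit, and piece 01 was the highest of its group and still far below the KO pieces. The log2 fold change was 6.22 (SE of 0.60, adjusted p = 0.000727, edgeR), with a 95% interval of 28.2-fold to 198-fold. Without KO+NM1 piece 01 it was 7.07, or 134-fold (adjusted p = 3.48e-06, edgeR).

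The profile of Pif1 over the 7 pieces was compared with those of the 14953 genes with a mean of at least 1 CPM, by the root mean square difference of log2 CPM after centring each gene on its mean. The 3 nearest were Pimreg, a regulator of the metaphase to anaphase step, at 0.223, Ccna2, the cyclin A2 gene, at 0.258, and E2f8, an E2F family repressor, at 0.304 log2 units. Ccna2 is also 1 of the 10 cycling genes described next.

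Rtel1, on chromosome 2 from 181319739 to 181356616 (ENSMUSG00000038685), had 126, 116 and 110 CPM in the KO libraries 01 to 03, against 36.9, 19.1, 22.2 and 21.9 CPM in KO+NM1 libraries 01 to 04. The groups did not overlap, and KO+NM1 piece 01 was again the highest of its group. The difference on the log2 scale was 2.23 (SE of 0.24, adjusted p = 0.000741, edgeR), and without that piece it was 2.35 (adjusted p = 6.25e-06, edgeR). Per length Rtel1 was second to Dkc1 in the KO pieces, at 17.7 ± 1.24 FPKM (SD, n = 3). In the KO+NM1 pieces, at 3.78 ± 1.21 FPKM (SD, n = 4), it did not differ from Terf1, at 3.75 ± 0.987 FPKM, beyond the spread between pieces.

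Genes of cycling cells differed between the same tumors. The 10 cycling genes, Mki67 and Top2a among them, were all called higher in the KO pieces, and their summed level was 2243 to 2845 CPM in the KO pieces and 75.1 to 217 CPM in the KO+NM1 pieces, with piece 01 at 217 CPM. Mki67, the gene of the Ki-67 antigen, had 395 ± 81.3 CPM (SD, n = 3) and 9.01 ± 7.67 CPM (SD, n = 4). Its log2 fold change of 5.45 (SE of 0.57, adjusted p = 0.000968, edgeR) lay between those of Rtel1 and Pif1. The part of the cycling genes in the differences of Pif1, Rtel1, Dkc1 and Terf1 was not tested.

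**Figure D3:**
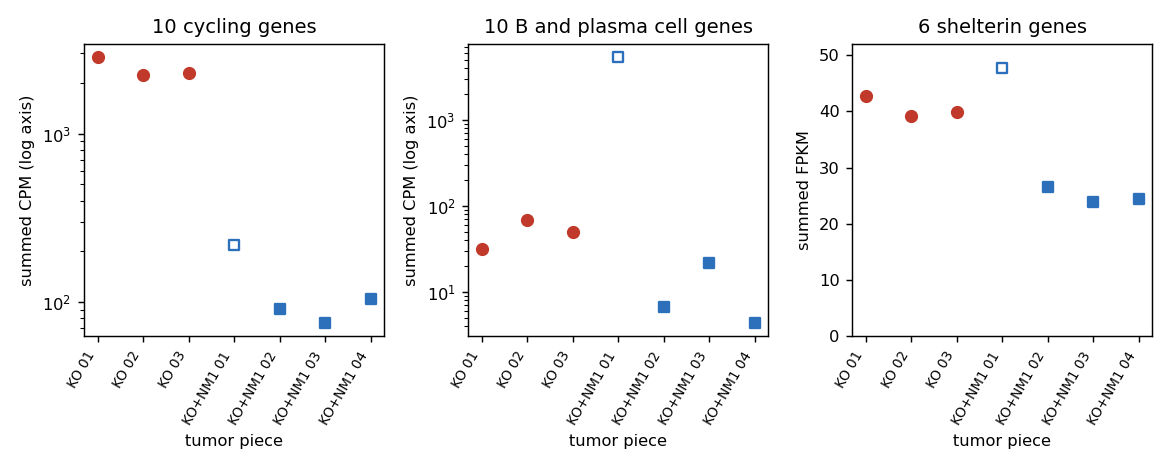
Summed level in each tumor piece of 10 cycling genes (CPM, log axis), 10 B and plasma cell genes (CPM, log axis) and the 6 shelterin genes (FPKM, linear axis from 0), with KO pieces as circles, KO+NM1 pieces 02 to 04 as filled squares and KO+NM1 piece 01 as an open square. Piece 01 lies with its group in the first panel, at 5339 CPM far above all other pieces in the second, and at 47.7 FPKM above the KO pieces in the third.

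Of the 6 shelterin genes, only Terf1 was called higher in the KO pieces. Terf1 lies on chromosome 1 from 15805646 to 15844052 (ENSMUSG00000025925). It had 33.5, 35.0 and 35.4 CPM in the KO libraries 01 to 03, against 23.8, 16.1, 13.2 and 16.0 CPM in KO+NM1 libraries 01 to 04. The KO pieces lay within 2 CPM of each other, above every KO+NM1 piece. The log2 change, KO minus KO+NM1, came to 1.00 (SE of 0.22, 95% interval 0.49 to 1.52, adjusted p = 0.00805, edgeR). It therefore sat on the 2-fold threshold. Without KO+NM1 piece 01 it was 1.07 (adjusted p = 0.000197, edgeR), and without any other single piece it was 0.87 to 0.95, with adjusted p from 0.0177 to 0.0467 and no longer past 2-fold. It fell to 0.91 with DESeq2's size factors and to 0.85 with upper-quartile scaling, and with a replicate block for the piece number its adjusted p was 0.0501 (edgeR).

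Terf2, the other protein that binds the double-stranded repeat, lies on chromosome 8 from 107069400 to 107096547 (ENSMUSG00000031921). Its values were 58.9, 54.7 and 52.4 CPM in the KO libraries 01 to 03, against 68.2, 42.3, 36.8 and 38.4 CPM in KO+NM1 libraries 01 to 04. KO+NM1 piece 01 was the highest of all 7 pieces and the other 3 of its group were the lowest. The log2 fold change was 0.25 (SE of 0.24, adjusted p = 0.404, edgeR), and 0.37 without piece 01 (adjusted p = 0.00839, edgeR).

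Tinf2, the bridge of the complex, lies on chromosome 14 from 55674689 to 55681820 (ENSMUSG00000007589). It had 24.9, 21.7 and 24.7 CPM in the KO libraries 01 to 03, against 40.2, 16.8, 19.2 and 15.5 CPM in KO+NM1 libraries 01 to 04. As with Terf2, piece 01 lay above all others and the other 3 pieces of its group lay below every KO piece. The log2 change, KO minus KO+NM1, came to 0.05 (SE of 0.35, 95% interval -0.78 to 0.89, adjusted p = 0.916, edgeR). Its sign was not fixed, since it was -0.04 with DESeq2's size factors and -0.10 with upper-quartile scaling, and without piece 01 it was 0.34 (adjusted p = 0.0577, edgeR). Gmpr2, on the opposite strand, shares 31.2% of the exonic bases of Tinf2 and had 22.8 to 23.8 CPM in the KO pieces and 26.1 to 33.5 CPM in the KO+NM1 pieces. Reads there cannot be told apart between the 2 genes without strand.

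Acd, which recruits telomerase to the end and holds Pot1a and Pot1b, lies on chromosome 8 from 105695860 to 105701102 (ENSMUSG00000038000). Its values were 48.5, 40.5 and 41.9 CPM in the KO libraries 01 to 03, against 51.5, 28.9, 23.9 and 25.3 CPM in KO+NM1 libraries 01 to 04. Piece 01 was again the highest. The difference on the log2 scale was 0.43 (SE of 0.29, adjusted p = 0.253, edgeR), and 0.62 without piece 01 (adjusted p = 0.00244, edgeR). Carmil2, on the opposite strand, shares 33.3% of the exonic bases of Acd. Carmil2 stood at 146 CPM in KO+NM1 piece 01, at 1.03 to 1.38 CPM in KO+NM1 pieces 02 to 04 and at 7.67 to 9.51 CPM in the KO pieces, and its part in the value of Acd was not tested.

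Pot1a and Pot1b, the single-strand binding proteins, were the least abundant shelterin genes per length. Pot1a lies on chromosome 6 from 25743737 to 25809246 (ENSMUSG00000029676) and Pot1b on chromosome 17 from 55651951 to 55712628 (ENSMUSG00000024174). Pot1a had 19.2, 17.7 and 21 CPM in the KO libraries 01 to 03, against 18, 14.8, 12.9 and 14 CPM in KO+NM1 libraries 01 to 04. Only piece 01 of its group reached the KO range. The log2 fold change was 0.37 (SE of 0.18, adjusted p = 0.128, edgeR), and 0.35 without piece 01 (adjusted p = 0.0480, edgeR). Pot1b had 10.8, 11.3 and 9.77 CPM in the KO libraries 01 to 03, against 17, 4.19, 5.98 and 4.77 CPM in KO+NM1 libraries 01 to 04. Piece 01 lay above every KO piece and the other 3 lay below every one. The difference on the log2 scale was 0.41 (SE of 0.52, adjusted p = 0.535, edgeR), and 0.97 without piece 01 (adjusted p = 0.00397, edgeR). The transcripts of Pot1a and Pot1b share 0 words of 50 bases, so reads of at least that length would not be split between them.

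Leaving out KO+NM1 piece 01 let more genes pass the adjusted p, both in shelterin and over all genes. Over all 7 pieces 1 of the 6 shelterin genes passed the adjusted p, and without that piece 5 did, all higher in the KO pieces, with Tinf2 the exception. Only Terf1 of them was past 2-fold. Over all 10 genes 8 passed the adjusted p without it, against 4 with it, all of them higher, while of the 16617 genes then tested 35.8% passed it as higher and 36% as lower. With all 7 pieces 25.7% of the genes tested passed it as higher and 50.2% in either direction. Passing genes thus became more frequent without the piece over all genes too, and not among these 10 alone. Without piece 01 KO and KO+NM1 values were apart for 9 of the 10 genes, with Tert the exception, where 78.2% of the genes tested did not overlap and 42.8% did not and were higher. With all 7 pieces it was 4 of 10, against 57% and 30.5%.

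Levels within shelterin were compared per length. The length of a gene is that of all its annotated exons. It includes the 31.2% of Tinf2 and 33.3% of Acd that are shared with genes on the opposite strand. The part of these bases in the order, the shares and the ratio of Tinf2 to Acd was not tested. In the KO pieces Acd, at 12 ± 1.18 FPKM (SD, n = 3), and Terf2, at 12 ± 0.717 FPKM, did not differ beyond their spread, followed by Terf1 at 7.51 ± 0.220, Tinf2 at 4.81 ± 0.368, Pot1a at 2.22 ± 0.193 and Pot1b at 2.02 ± 0.147 FPKM, the latter 2 within their spread. Pif1, at 8.79 ± 0.849 FPKM (SD, n = 3), stood between Terf2 and Terf1 there. In the KO+NM1 pieces the order by mean was Terf2 at 10.1, Acd at 8.94, Tinf2 at 4.64, Terf1 at 3.75, Pot1a at 1.72 and Pot1b at 1.52 FPKM. Tinf2 stood well above Terf1 in piece 01, at 8.13 against 5.17 FPKM, and Terf1 was the higher of the pair in pieces 02 and 04, at 3.50 against 3.40 and 3.47 against 3.14 FPKM, so their order was not settled. Terf1 made up 18.5% ± 1.34 (SD, n = 3) of the summed FPKM of the 6 genes in the KO pieces and 12.5% ± 1.45 (SD, n = 4) for KO+NM1, and Terf2 29.6% ± 0.921 and 33.3% ± 1.55. In the KO+NM1 pieces, piece 01 included, the share of Terf1 ran from 10.8% to 14.2%, below its lowest KO share of 17%. That of Terf2 ran from 31.1% to 34.6%, above its highest KO share of 30.3%. A share also depends on the levels of the other genes in the sum, so a higher share of Terf2 is not a higher level.

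Ratios between 2 genes of the same library do not depend on the scaling between libraries, and 3 were compared. The log2 ratio of Terf1 to Terf2 per length was -0.82, -0.65 and -0.57 in the KO libraries 01 to 03, against -1.52, -1.40, -1.48 and -1.27 in KO+NM1 libraries 01 to 04. Here piece 01 lay with its group, the groups did not overlap, and the difference was 0.74 (two-sided exact permutation test over 35 splits, p = 0.0286, adjusted p = 0.0857 over the 3 ratios). The p of 0.0286 is the smallest that 3 pieces against 4 allow, and its adjusted value of 0.0857 the smallest that a single ratio of the 3 could reach. Without piece 01 the difference was 0.70 (exact permutation test, adjusted p = 0.15, which 3 pieces against 3 cannot bring under 0.05 for any of the ratios). The ratio shows how the pair differed relative to each other and not which of them moved.

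The log2 ratio of Pot1b to Pot1a was -0.14 ± 0.231 (SD, n = 3) for KO and -0.42 ± 0.762 (SD, n = 4) for KO+NM1 (exact permutation test, p = 0.571, adjusted p = 0.571). Within the KO+NM1 pieces it ran from -1.10 in piece 02 to 0.63 in piece 01, the only piece of its group where Pot1b stood above Pot1a per length. That of Tinf2 to Acd was -1.32 ± 0.103 (SD, n = 3) and -0.99 ± 0.237 (SD, n = 4), a difference of -0.33 (exact permutation test, p = 0.143, adjusted p = 0.214). For Pot1b to Pot1a the groups overlapped only through KO+NM1 piece 01. Without it KO, at -0.38 to 0.07, lay above KO+NM1, at -1.10 to -0.40, and the difference moved from 0.28 to 0.64 (exact permutation test, adjusted p = 0.15). For Tinf2 to Acd the groups overlapped with and without that piece, and the difference without it was -0.27 (exact permutation test, adjusted p = 0.2).

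**Figure D4:**
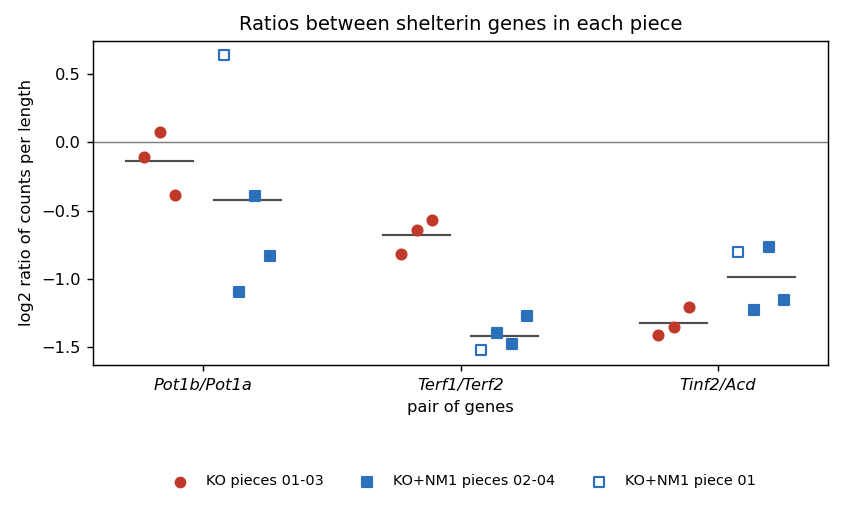
Log2 ratio of counts per length for 3 pairs of shelterin genes in each piece, with KO pieces as circles, KO+NM1 pieces 02 to 04 as filled squares, KO+NM1 piece 01 as an open square and group means as lines. For Terf1/Terf2 the groups are apart, at -0.82 to -0.57 and -1.52 to -1.27, and for the other pairs they overlap, for Pot1b/Pot1a only through the open square.

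Other genes that act at telomeres were taken from 6 lists holding 55 genes, all of which passed the filter on low counts. The lists were chosen with earlier results of these data known. Some of their genes, such as those of primase and polymerase alpha, also serve general DNA replication. The part of the cycling genes in the calls on these lists was not tested. Of the 55 genes, 29 were called higher and 1 lower in the KO pieces, and 25 were not called, against 17.1% higher and 20.3% lower among all genes tested. The median log2 fold change was 1.15. Without KO+NM1 piece 01 it was 28 higher and 1 lower of 54 tested, where 21.7% of all genes were called higher. By list it changed only the assembly of telomerase, with 4 higher of 11 tested, and left the counts of higher and lower calls in the other 5 as given next.

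Among 12 genes for the assembly of telomerase 5 were higher and 0 lower. The largest rises were those of the dyskerin partners Nhp2, with a log2 fold change of 2.18 (SE of 0.14, adjusted p = 0.000229, edgeR), and Gar1, with 1.76 (adjusted p = 0.00114, edgeR). Terc itself was near the detection limit, with 9, 11 and 18 reads in the KO libraries 01 to 03, against 10, 8, 1 and 0 reads in KO+NM1 libraries 01 to 04. In CPM this was 0.30 to 0.594 in the KO pieces and 0 to 0.365 in the KO+NM1 pieces, and the groups overlapped. Its log2 fold change of 1.15 had a SE of 0.94 (adjusted p = 0.328, edgeR). Dkc1, Nhp2 and Gar1 belong to a particle that also modifies ribosomal RNA, and the counts do not separate these roles. Terf2ip, the shelterin protein Rap1, was outside the 10 genes and had a log2 fold change of -0.27 (SE of 0.13, adjusted p = 0.131, edgeR).

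In the list of shelterin partners, 4 of 10 genes were higher and 0 lower. The largest rises were those of the tankyrase Tnks, with a log2 fold change of 2.77 (adjusted p = 0.000716, edgeR), and of Mre11a, a nuclease of the MRN complex, with 1.91 (adjusted p = 0.00132, edgeR). The CST complex, which limits telomerase and brings in primase for the other strand, and primase rose throughout, with 7 of 7 genes higher. Ctc1, Stn1 and Ten1 had log2 fold changes of 1.10, 1.63 and 1.19 (adjusted p = 0.0014, 0.00085 and 0.0116, edgeR). The primase and polymerase alpha genes Prim1 and Pola1 had 3.88 and 3.56 (adjusted p = 0.000225 and 0.000185, edgeR).

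All 7 genes for other helicases and flap nucleases were higher too, with a median log2 fold change of 3.16. Brip1 had 5.53 (SE of 0.34, adjusted p = 0.000229, edgeR) and Recql4 had 4.15 (SE of 0.33, adjusted p = 0.000384, edgeR). Of 9 genes for telomere chromatin 4 were higher and 0 lower, with the histone methyltransferase Suv39h2 at 3.32 (adjusted p = 0.00226, edgeR) and the HP1 protein Cbx5 at 2.74 (adjusted p = 0.000187, edgeR). Among 10 genes known to regulate Tert transcription, 2 were higher, E2f1 at 2.97 (adjusted p = 0.000379, edgeR) and Myc at 1.67 (adjusted p = 0.00205, edgeR), and 1 was lower, the Myc antagonist Mxd4 at -1.59 (adjusted p = 0.000434, edgeR). Tert itself was not called.

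**Figure D5:**
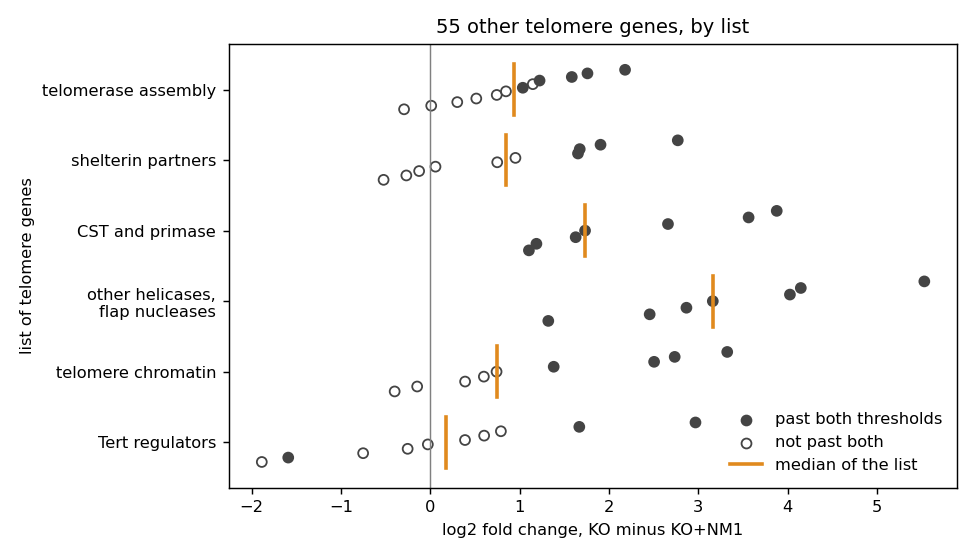
Log2 fold change, KO minus KO+NM1, of 55 other telomere genes in 6 lists, with genes past both thresholds filled, the others open and the median of each list as a vertical bar. All 7 genes of the CST and primase list and all 7 of the helicase and nuclease list are filled and above 0, while 2 higher and 1 lower of the 10 Tert regulators are filled.

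Other cell markers stood as follows beside these results. The 10 macrophage markers summed to 3208 to 3689 CPM in the KO pieces and 681 to 2523 CPM in the KO+NM1 pieces, the 10 endothelial markers to 242 to 275 CPM and 1256 to 1916 CPM, and the 10 fibroblast markers to 7562 to 13707 CPM and 3045 to 14296 CPM. The keratinocyte markers summed to 13.4 to 1530 CPM and 91.7 to 537 CPM, those of mammary epithelium to 4.13 to 68.9 CPM and 596 to 3564 CPM, and those of Schwann cells to 131 to 155 CPM and 260 to 665 CPM. Their part in the differences of the telomerase and shelterin genes was not tested.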

How the data were processed

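RNA was measured in 3 KO and 4 KO+NM1 tumor pieces, grouped by the sample titles. Per the study's methods, Trimmomatic 0.36 was used for trimming, intact read pairs were mapped by HISAT2 2.0.4 to GRCm38 (mm10), SAMtools 0.1.19 sorted the alignments and HTSeq-count gave the counts by gene. The annotation release and the strand option were not given in the sources used here. The deposited values are raw read counts, without normalization, for 46603 Ensembl genes, of which 46091 had a GENCODE M21 symbol. Reads in exons shared by overlapping genes may be dropped or assigned to either.

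In R 4.3.3, counts were filtered by filterByExpr of edgeR 4.0.16 (minimum count 10), scaled by TMM and compared, KO minus KO+NM1, by the quasi-likelihood test with Benjamini-Hochberg adjustment over all genes tested. The thresholds on the adjusted p (0.05) and the change (2-fold) follow the study's methods. Standard errors and 95% intervals were computed from the information matrix of the fit and edgeR's moderated dispersion. Alternatives included DESeq2 1.42.0 and voom of limma 3.58.1. Genes named outside the 10 are Myo1c, Mki67, Terf2ip, Terc, Ctc1, Stn1, Ten1, the 2 largest rises and falls past both thresholds in each telomere list, the first 2 genes of a marker list, the 3 genes nearest to the member with the largest rise, and 3 genes that overlap a member and were named after their values were seen. One of the genes that this rule would name is left out and not reported here. The members and lists were chosen with earlier results of these data known. The test was tested on simulated data, where it recovered 57.4% of the 4-fold changes and 4.26% of the 2-fold changes. Of its 63 calls there, 1 was on an unchanged gene. Only 195 of the 16600 genes run there were changed, while 50.2% of the genes passed the adjusted p between the tumors, so these rates do not carry over. A gene that was not called may still differ within its 95% interval. Among the 10 genes, the upper end of that interval for those not called ran from 1.74-fold (Pot1a) to 4.13-fold (Tert). The chi-square per degree of freedom between any 2 libraries was 35.2 or more, so none repeats another.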

Additional observations from a re-analysis of the deposited data

How the results depend on the processing

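Over 17 alternatives the log2 fold changes of Pif1 (5.96 to 7.07), Rtel1 (2.06 to 2.47) and Dkc1 (1.32 to 1.72) kept their sign and their side of the adjusted p wherever the gene was tested. Pif1 and Tert fell out when at least 10 counts were asked for in every library. That filter left 2 members called instead of 4, since Pif1 was gone and Terf1 was then at 0.95. The number of members called was 3 to 4 when single pieces were left out, and 5 with voom. Scaling by library size alone moved the median log2 fold change of all genes by 0.17, and upper-quartile scaling by -0.16.

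Terf1 lay at 0.87 to 1.07 without single pieces. It passed the adjusted p in all but 2 settings, with a value of 1.00 in edgeR's glmTreat against 2-fold, which tests another hypothesis, and 1.01 with the replicate block. Samples of the same number did not pair (correlations across genes of their deviations of 0.0802, 0.102 and -0.0165), and the block changed no other call on the members. glmTreat gave 1707 genes higher and 2074 lower over all genes.

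With voom and sample quality weights, Terf2 (0.41), Tinf2 (0.46), Acd (0.62), Pot1a (0.46) and Pot1b (1.13) passed the adjusted p. When single pieces were left out, Terf2 ranged from 0.094 to 0.37, Acd from 0.24 to 0.62, Pot1a from 0.19 to 0.35 and Pot1b from 0.18 to 0.97, and each passed without KO+NM1 piece 01 alone. Tinf2 turned to -0.038 with DESeq2's size factors and with DESeq2's Wald test, to -0.042 with every gene of at least 1 count, to -0.10 with upper-quartile scaling, and ranged from -0.11 to 0.34 without single pieces. Tert ranged from -0.065 (without KO piece 01) to 1.08 (without KO+NM1 piece 01) in the same way. The ratios kept their sign in all 8 alternatives, though that of Pot1b to Pot1a ranged from 0.057 to 0.64 (highest without KO+NM1 piece 01, lowest without KO+NM1 piece 02), and none passed the adjusted p, which 3 pieces against 4 could not do for a single ratio. The cause of these shifts was not tested.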

Other observations

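Dixon's ratio was computed for the 4 KO+NM1 pieces over 13 values, the log2 CPM of the 10 genes and the 3 ratios, and none passed its critical value. KO+NM1 piece 01 was the outermost piece for all 10 genes, and the highest ratio was that of Pif1, at 0.811.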
